A study of Mus musculus with 7 samples.

Results

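The extracellular matrix of the brain was described here through 36 genes, matched by symbol among the 55536 genes of the count matrix. They code for the lecticans and their link proteins, tenascins, other chondroitin sulfate proteoglycans, hyaluronan synthases, matricellular proteins, collagens, laminins and other parts of basement membranes, matrix proteases, a protease inhibitor and reelin. The list holds genes by name and was drawn up with earlier results of these data known. All 36 identifiers were found in the GENCODE vM21 annotation. The data were transcript counts of hippocampal nuclei from mice aged 10 months, barcoded by split pooling (the Split-seq method of Parse), in which the first-round well of a nucleus tells which mouse it came from. The 4 groups of 6 mice each, 3 females and 3 males, were compared with each other. WT-veh and WT-PMX were wild-type C57BL6/J mice. Arc-veh and Arc-PMX were Arctic48 mice of the same background, which carry a human APP transgene with the Indiana, Swedish and Arctic mutations. These are mutations of familial disease, the mice are hemizygous for the transgene, and the promoter that drives the transgene is not given in the sources used here. The PMX groups drank PMX205, an antagonist of the complement receptor C5aR1, at 20 µg/ml for 12 weeks by the sample labels, and the veh groups drank water. The study's text gives ages at the start and end of treatment that span somewhat less. Where 4 values follow each other, they are given for WT before Arc mice and, within a genotype, for veh before PMX. The design asks how matrix genes differ between genotypes and whether blocking C5aR1 alters them. Tissue was frozen after perfusion, and each well held the nuclei of 1 mouse.

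The matrix between brain cells differs from that of other tissues. It is a loose mesh in which lecticans bind hyaluronan through link proteins and bind each other through tenascin-R, and around some inhibitory neurons it condenses into perineuronal nets. Fibrillar collagen is scarce, whereas the basement membranes of vessels and of the pial surface are sheets of laminin, type IV collagen, nidogen and perlecan. Astrocytes, oligodendrocyte precursors (OPCs) and neurons make the mesh, vascular and meningeal cells make basement membrane, and proteases of the ADAMTS family cut lecticans.

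After filtering, 43885 nuclei remained, with a median of 4414 transcripts. A well held 1150 to 3111 nuclei and 4389302 to 30001277 transcripts. Clusters were named by fixed markers that included none of the 36 genes, and a name such as astrocyte below stands for astrocyte-like nuclei. The types were 27738 neurons, 5442 astrocytes, 4160 oligodendrocytes, 1517 microglia, 1291 OPCs, 634 choroid plexus, 430 endothelial, 426 fibroblast, 339 ependymal and 314 pericyte nuclei, 49 T cells and 1545 unnamed nuclei. Levels are given as CPM, the transcripts of a gene over all transcripts of the nuclei of that type in a well, scaled to the usual CPM unit, for wells with at least 10 such nuclei. Nuclei hold newly made RNA above all, so that levels here are not protein levels. App in neurons, the mouse counterpart of the human transgene, had a median of 650.0 CPM (546.1 to 790.9) in 12 Arc wells. The 12 WT wells had a median of 503.2 CPM (449.2 to 575.0), with 2 Arc wells within the WT range and 2 WT wells within the Arc range. Whether transcripts of the transgene were counted as App is not given in the sources used here. The WT-veh wells F3 and M3 stood apart by few oligodendrocytes, and these wells and F3 of WT-PMX each held fewer than 10 microglia. The authors left out 1 WT sample whose expression was that of an Arctic mouse. Which one is not stated in the sources used here, and all wells were kept. In astrocytes, the share of nuclei in a cluster led by Gfap, described below, was at most 13.4% in the 12 WT wells and at least 41.9% in the 12 Arc wells, so that no WT well lay among the Arc wells by that share. Of the nuclei, 7920 (18.0%) had a barcode that also occurred in another of the 7 sublibraries.

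The 36 genes were spread over 10 cell types when each was placed by its highest median CPM. Astrocytes and pericytes each led for 7 genes, OPCs for 6, fibroblasts for 5, neurons for 4, choroid plexus for 3, and endothelial cells, ependymal cells, microglia and oligodendrocytes for 1 each. By the number of transcripts instead, neurons held the largest share of 25 genes, astrocytes of 6, OPCs of 3, and oligodendrocytes and pericytes of 1 each, and neurons were most of the nuclei. Both measures gave the same type for 10 genes. For 9 genes the wells of the leading type lay apart from those of the type with the second highest median, and for 27 they overlapped. For 5 genes, Vcan, Hapln1, Tnr, Lama1 and Adamts20, they lay above the wells of every other type. These levels are a description without a test, since the types were cut from the same nuclei. Levels of one type's genes in another include free RNA, whose part was not tested. Markers of neurons, for instance, summed to 11690 to 15728 CPM in the neurons of the WT-PMX wells and to 288 to 656 CPM in their astrocytes.

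**Figure D1:**
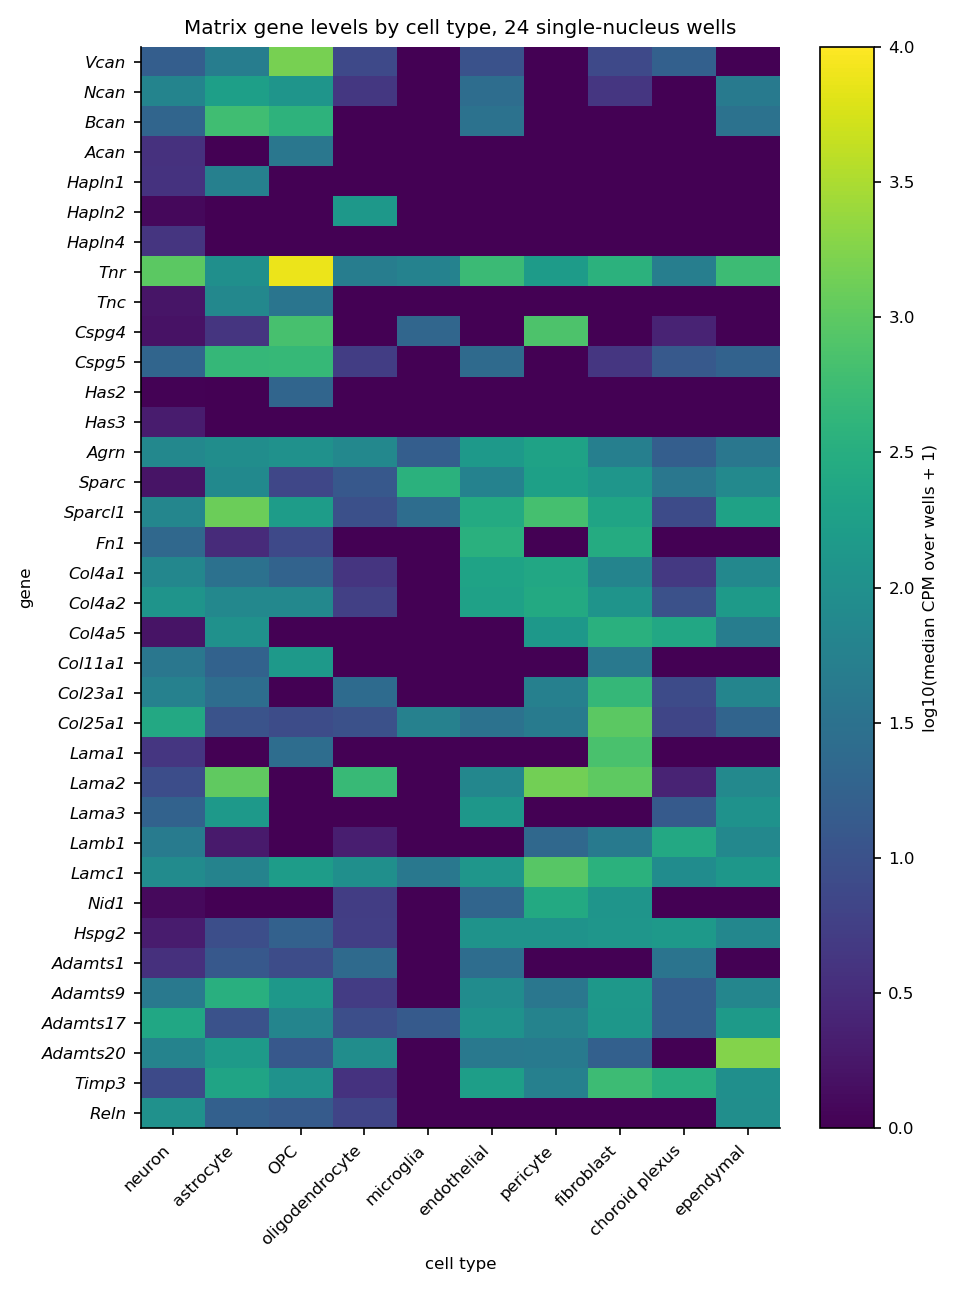
Median level of the 36 matrix genes (rows) in 10 cell types (columns), as log10 of the median CPM over wells plus 1. Colours compare cell types within a row. Most lecticans, link proteins and tenascins are brightest in the astrocyte or OPC column, with Hapln2 (oligodendrocyte) and Hapln4 (neuron) as exceptions. Most basement membrane genes are brightest in the pericyte, endothelial, fibroblast or choroid plexus column, with Lama3 (astrocyte) as an exception.

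Among the lecticans, Vcan (versican) was an OPC gene, with 1086, 1519 and 2395 CPM as the lowest, median and highest of 24 wells, against a median of 49.5 CPM in astrocytes. All OPC wells lay above all astrocyte wells. Bcan (brevican) was highest in astrocytes, at 263, 592 and 1317 CPM, with OPCs next at a median of 378 CPM. Ncan (neurocan) was also highest in astrocytes, at 88.3, 182 and 337 CPM, but neurons held 83.6% ± 3.52 (SD, n = 24 wells) of its transcripts. Within neurons its median was 78.9 CPM in dentate granule cells and 24.5 CPM in interneurons of the medial ganglionic eminence (MGE). Acan (aggrecan), the lectican of perineuronal nets, was low, with a median of 37.2 CPM in OPCs and of 13.8 CPM (5.73 to 33.9) in MGE interneurons, the class that holds the parvalbumin cells such nets surround.

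The link proteins, which fasten lecticans to hyaluronan, fell in different cells. Hapln1 was led by astrocytes, at 28.2, 54.3 and 100.2 CPM. Neurons held 52.6% ± 8.28 and astrocytes 44.9% ± 8.09 of its transcripts (SD, n = 24 wells). Hapln2, a link protein of the nodes of Ranvier, was an oligodendrocyte gene, at 48.4, 137 and 251 CPM against a median of 0.203 CPM in neurons. Hapln4 was neuronal, at 1.18, 3.14 and 6.30 CPM, and 98.1% ± 2.48 (SD, n = 24 wells) of its transcripts lay in neurons. The astrocyte wells of Hapln1 lay above all wells of every other type. For Hapln2 and Hapln4 the leading type was clear of the second by median but not of all others. A pericyte well had 63.0 CPM of Hapln2, and a microglia well 8.61 CPM of Hapln4.

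Tnr (tenascin-R), which cross-links lecticans, had 5855, 7699 and 8759 CPM in OPCs. Neurons followed at 778, 989 and 1096 CPM, and 85.1% ± 3.30 (SD, n = 24 wells) of Tnr transcripts were neuronal. Dentate granule cells had a median of 1406 CPM and interneurons of the caudal ganglionic eminence (CGE) one of 448 CPM. Tnc (tenascin-C), a glycoprotein of reactive and developing tissue, was an astrocyte gene, at 40.3, 71.6 and 197 CPM, and astrocytes held 69.3% ± 12.3 (SD, n = 24 wells) of its transcripts. Cspg4, which codes for the surface proteoglycan NG2, had a median of 753 CPM in pericytes (13 wells) and of 695 CPM in OPCs, and those ranges overlapped. Cspg5 (neuroglycan C) was alike in OPCs and astrocytes, with medians of 486 and 465 CPM and overlapping ranges. The hyaluronan synthases were sparse. Has2 gave 146 transcripts in all, with a median of 19.0 CPM in OPCs, and Has3 gave 337, with a median of 1.05 CPM in neurons.

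Basement membrane genes had their highest CPM in the cells of vessels and membranes. Pericytes led for Col4a1 (90.8, 252 and 977 CPM), Col4a2 (0, 269 and 809.9 CPM), Lamc1 (318, 914 and 1740.0 CPM), Nid1 (0, 269 and 1004 CPM), Agrn (0, 203 and 430.1 CPM) and Lama2 (556, 1428 and 2779 CPM). For each of these the pericyte wells overlapped those of the type with the second highest median. Endothelial nuclei came second for Col4a1, Col4a2 and Agrn, with medians of 210, 194 and 140 CPM. Pericyte nuclei were shallow, with a median of 872.5 transcripts. Lama2 codes for the alpha chain of laminin-211, and its median of 1063 CPM in astrocytes was close to the pericyte level, with 60.4% ± 5.66 (SD, n = 24 wells) of its transcripts in astrocytes. Lama1 was led by fibroblasts, at 311, 715 and 1366 CPM in 12 wells. Neurons held 58.2% ± 20.5 and fibroblasts 30.2% ± 21.3 of its transcripts (SD, n = 24 wells). Lama3 was led by astrocytes, at 72.2, 138 and 294 CPM, with endothelial nuclei next at a median of 131 CPM. Lamb1 was led by choroid plexus, at 142, 257 and 370.2 CPM. Neurons held 67.1% ± 9.76 of Lama3 and 91.7% ± 5.35 of Lamb1 transcripts (SD, n = 24 wells). Hspg2 (perlecan) had close medians of 140.2 CPM in choroid plexus and 125 CPM in fibroblasts. Fn1 (fibronectin) had a median of 341 CPM in endothelial nuclei and of 291 CPM in fibroblasts.

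Whether the counting used strand is not given in the sources used here. Col4a1 and Col4a2 overlap at their 5′ ends, on opposite strands, so reads there could not be told apart without it. Neurons held most transcripts of several of these genes. Their share was 93.5% ± 2.10 for Col4a1, 92.5% ± 2.02 for Col4a2, 84.5% ± 4.30 for Lamc1, 87.4% ± 3.29 for Agrn and 88.3% ± 6.37 for Fn1 (SD, n = 24 wells). CA3 pyramidal cells had a median of 116 CPM for Col4a1 and of 172 CPM for Col4a2, against 34.5 and 76.6 CPM in dentate granule cells. The neuronal Fn1 was not even either, at a median of 0.430 CPM in dentate granule cells and 76.0 CPM in neurons outside the named classes. When nuclei were named by their highest marker score the neuronal shares were lower, at 66.4% for Fn1 and 81.9% for Col4a1.

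**Figure D2:**
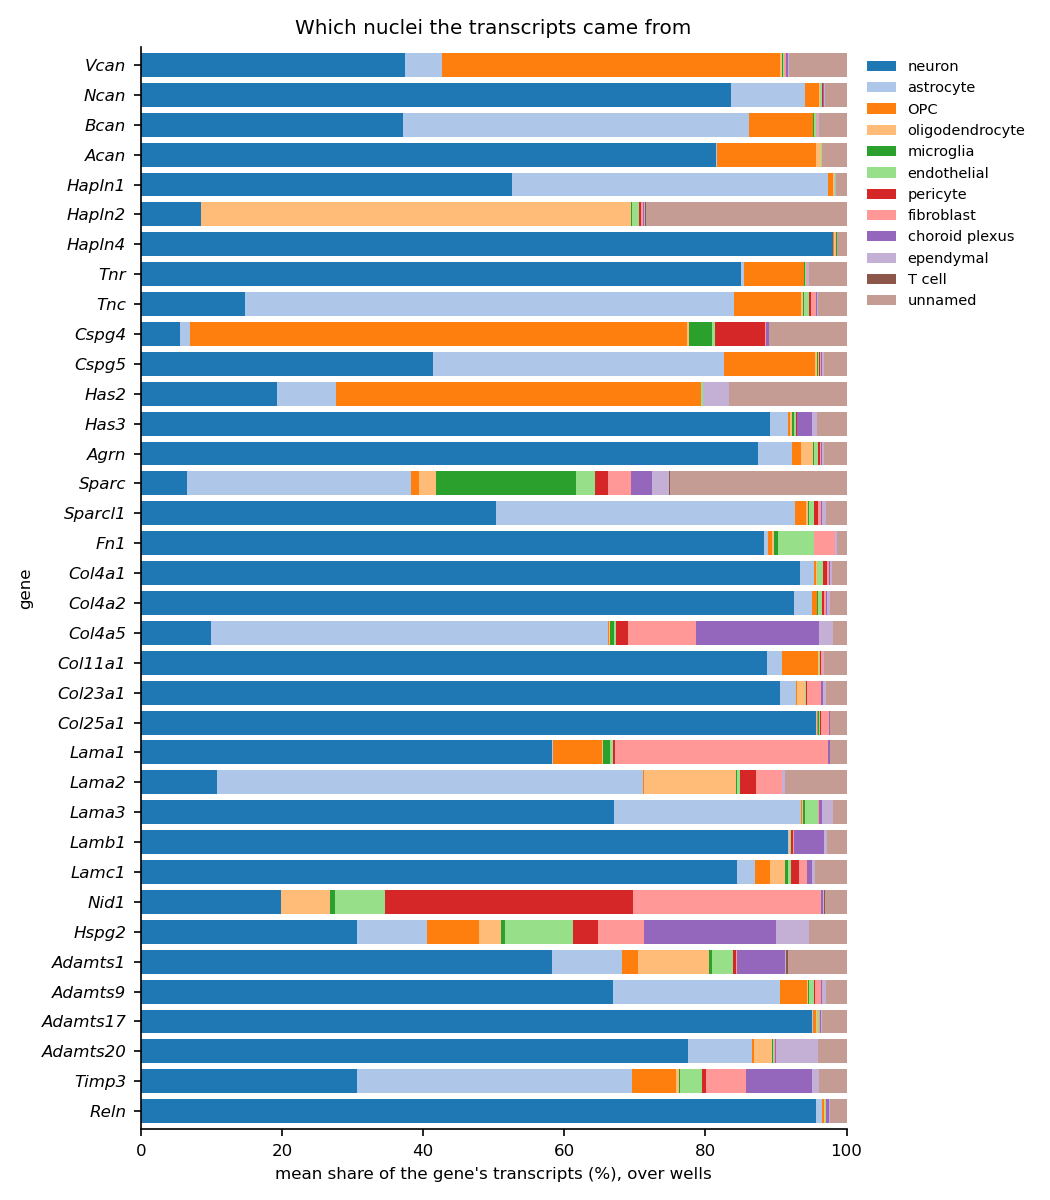
Mean share of each gene's transcripts that came from each cell type, in percent over wells, for the 36 genes (rows). Neurons fill the largest part of the bar for 25 genes, including Col4a1 and Col4a2, whose CPM was highest in pericytes.

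The other collagens fell into separate places. Col4a5, an alpha chain of type IV collagen, had a median of 348 CPM in fibroblasts, and astrocytes held 56.2% ± 20.6 (SD, n = 24 wells) of its transcripts. Col11a1, a fibrillar collagen, was led by OPCs at 35.2, 139 and 328 CPM. The transmembrane collagens Col23a1 and Col25a1 had medians of 455 and 973 CPM in fibroblasts. Col25a1, whose product is found in amyloid plaques, was higher still in CGE interneurons, at 1471, 2234 and 2790.0 CPM, against 504 CPM in MGE interneurons and 82.9 CPM in CA1 pyramidal cells.

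Among matricellular genes, Sparc was led by microglia at 164, 358 and 1124 CPM in 21 wells, and Sparcl1 (hevin), an astrocyte-secreted protein of synapses, by astrocytes at 802, 1269 and 1785 CPM. Of Sparc transcripts, microglia held 19.7% ± 11.1, astrocytes 31.9% ± 7.77 and unnamed nuclei 25.1% ± 11.8 (SD, n = 24 wells). The ADAMTS proteases were each led by another type. Adamts9 was highest in astrocytes (175, 329 and 475 CPM), Adamts17 in neurons (191, 238 and 257 CPM) with a median of 438 CPM in dentate granule cells, Adamts20 in ependymal nuclei (541, 1813 and 2649 CPM in 13 wells) and Adamts1 in choroid plexus (10.9, 33.3 and 136 CPM). Timp3, an inhibitor of matrix proteases, was led by fibroblasts at 122, 554 and 1045 CPM. Reln (reelin), a secreted guide of neuronal position and synapses, had medians of 632 CPM in MGE and 579.6 CPM in CGE interneurons and of 1.52 CPM in CA1 pyramidal cells. In the cluster of 119 Cajal-Retzius-like nuclei, a cell type known for making reelin, Reln stood at 15659.5 CPM, and each of those nuclei had at least 1 Reln transcript.

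The genotypes were compared first in mice that drank water. Of 120 pairs of a matrix gene and a cell type that could be tested in 10 types, 3 rose and 4 fell in Arc-veh against WT-veh by edgeR's quasi-likelihood test (adjusted p under 0.05 over all genes of a type). Over all genes the same test called 1.96% of gene and type pairs higher and 1.13% lower. DESeq2 called 7 of the matrix pairs, beside 3.02% of all pairs, and 19 had an unadjusted p under 0.05, beside 11.1%. Of the 36 genes, 35 were tested in at least 1 type and Has2, which was too sparse, in none. The calls lay in astrocytes (Col11a1 and Col4a5 higher, Cspg5, Lama2 and Lama3 lower), OPCs (Adamts9 higher) and microglia (Sparc lower). In neurons 31 matrix genes were tested and none passed, with a median log2 fold change of -0.026 against 0.0092 over all 15105 genes tested there, of which 0.0662% were called. None of the 13 tested in fibroblasts or the 8 tested in each of endothelial, pericyte, choroid plexus and ependymal nuclei passed, where 0% of all genes was called in each type. Numbers of wells were only 3 to 5 per group in those vascular and membrane types, and which size of difference could be detected there was not tested.

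Because the vehicle comparison rests on 12 mice, the genotypes were compared again in the PMX205 groups, which share no mouse with it. Both comparisons came from 1 fit per type, so they shared the estimate of spread, the filter, the sex term and the clusters. They were thus not wholly separate. This comparison was added after the data had been examined. Of 96 testable pairs in 7 types, 4 were higher and 5 lower in Arc-PMX than in WT-PMX, where all genes gave 2.25% higher and 1.09% lower. DESeq2 called 9, beside 3.41% of all pairs, and 19 had an unadjusted p under 0.05, beside 9.17%. Of the 7 pairs called in vehicle, 6 were called again in the same direction, and Col11a1 in astrocytes was not. How many of all genes' vehicle calls were called again was not counted, so 6 of 7 says nothing particular about matrix genes. In neurons the 31 matrix genes had a median log2 fold change of 0.044 here, against -0.0050 over all genes. Sparcl1 and Adamts20 in astrocytes and Col11a1 in OPCs were called in the PMX205 groups alone, and whether the genotype effect differed between water and PMX205 is tested further below.

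**Figure D3:**
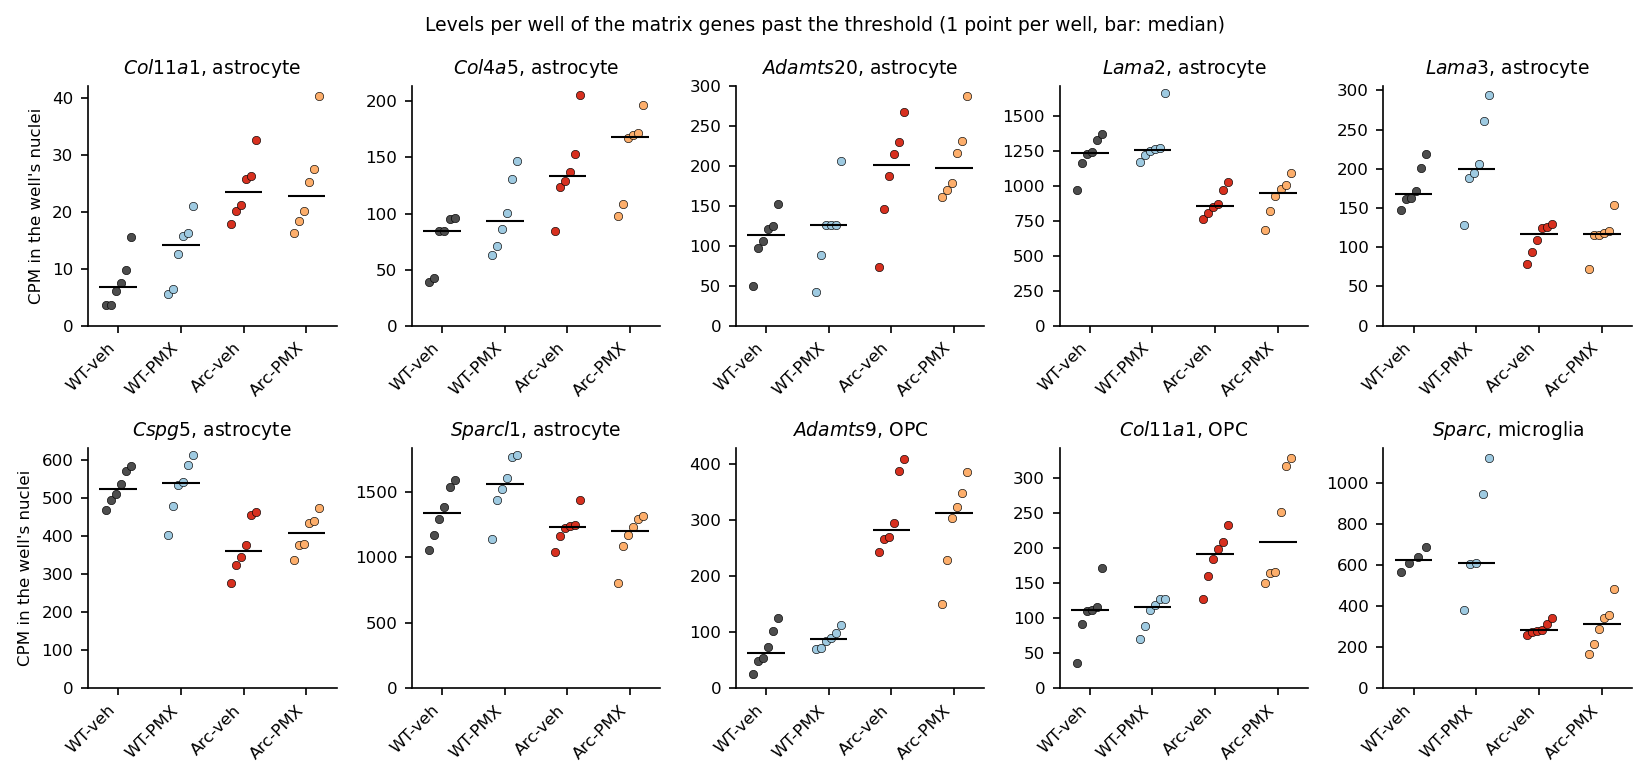
Level per well, in CPM, of the 10 pairs of gene and cell type that passed in either genotype comparison. Each point is a well and each bar a group median, with WT groups left of Arc groups and veh left of PMX. The 12 Arc wells of Adamts9 in OPCs, from 149.5 CPM up, sit above all WT wells.

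Among the called pairs of a gene and a whole cell type, Adamts9 in OPCs had the largest fold change. Adamts9 (chr6:92772699-92943492, minus strand, GRCm38) codes for a protease that cuts versican and aggrecan. Its lowest, median and highest wells had 24.9, 62.7 and 125 CPM in WT-veh, 69.0, 86.8 and 112 CPM in WT-PMX, 243, 282 and 409 CPM in Arc-veh and 149.5, 313 and 385 CPM in Arc-PMX. Every Arc well lay above every WT well of either treatment. The log2 fold change was 2.05 ± 0.24 (SE, n = 6 and 6 wells, adjusted p = 2.59e-08) in vehicle and 1.73 ± 0.24 (adjusted p = 1.11e-06) in the PMX205 groups. The test called 1.2% of OPC genes higher in vehicle and 0.937% in the PMX205 groups. The counts behind it were 60 and 71 transcripts in the WT groups and 280 and 249 in the Arc groups. Its substrate Vcan did not pass in OPCs, where the groups' medians were 1559, 1526, 1432 and 1586 CPM in the same order.

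OPCs also showed Col11a1 at 35.2, 111 and 172 CPM in WT-veh, 69.9, 116 and 128 CPM in WT-PMX, 127, 191 and 233 CPM in Arc-veh and 149.5, 208 and 328 CPM in Arc-PMX. The PMX205 groups did not overlap and differed by a log2 fold change of 1.18 ± 0.23 (SE, n = 6 and 6 wells, adjusted p = 0.000777). In vehicle the difference was 0.64 ± 0.24 with an adjusted p of 0.292, and 4 Arc-veh wells lay above all WT-veh wells. The OPC markers themselves moved with genotype, with summed medians of 13497 and 12419 CPM in the WT groups and 16420.3 and 16375 CPM in the Arc groups. Markers of astrocytes summed to medians of 824, 869.6, 745 and 739 CPM in the 4 groups, and those of neurons to 1306, 1125, 1135 and 1047 CPM. Of the 10 fibroblast markers 6 were at 0. Their part in the OPC results was not tested.

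Neuron classes were fitted apart from the pairs counted above, with 13 to 24 matrix genes tested per class and none called in vehicle. Over all genes the vehicle calls there were 0.28% in dentate granule, 0.0309% in CA1 and 0.119% in CA3 pyramidal cells, and 0% in Slc17a6-expressing excitatory neurons and in MGE and CGE interneurons. Between the PMX205 groups 1 was called, Adamts9 in dentate granule cells. It had 18.3, 29.1 and 52.2 CPM in WT-veh, 25.7, 31.3 and 42.8 CPM in WT-PMX, 31.4, 43.9 and 51.4 CPM in Arc-veh and 42.2, 54.2 and 66.0 CPM in Arc-PMX. In the PMX205 groups 5 of 6 Arc wells lay above all WT wells, with a log2 fold change of 0.79 ± 0.16 (SE, n = 6 and 6 wells, adjusted p = 0.0197), where 0.145% of the genes in these cells were called higher. It was lost without WT-PMX F1, WT-PMX M1, WT-PMX M3 or Arc-PMX M2 (adjusted p up to 0.0780). The vehicle groups overlapped, at 0.50 ± 0.17 with an adjusted p of 0.280.

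In astrocytes 22 matrix genes were tested. In vehicle 2 rose and 3 fell, beside 7.6% of all astrocyte genes higher and 4.9% lower. In the PMX205 groups 2 were higher and 4 lower, beside 7.45% and 3.83% of all genes. The median log2 fold change of the 22 in vehicle was -0.17 against 0.0083 over all 7306 genes, with 8 of the 22 above 0. In the PMX205 groups the median was -0.0075 against -0.028, with 11 of the 22 above 0.

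The 3 genes that fell in vehicle were 2 laminin chains and neuroglycan C. Lama2 (chr10:26980036-27619758, minus strand) had 974, 1239 and 1372 CPM in WT-veh, 1173, 1259 and 1668 CPM in WT-PMX, 765, 858 and 1031 CPM in Arc-veh and 685, 954 and 1094 CPM in Arc-PMX. The PMX205 groups did not overlap, and in vehicle 5 of 6 Arc wells lay below all WT wells. The log2 fold changes were -0.52 ± 0.10 (SE, n = 6 and 6 wells, adjusted p = 0.000214) in vehicle and -0.54 ± 0.099 (adjusted p = 9.69e-05) in the PMX205 groups. Lama3 had 148, 167 and 218 CPM in WT-veh, 128, 200.3 and 294 CPM in WT-PMX, 79.0, 117 and 129 CPM in Arc-veh and 72.2, 117 and 154 CPM in Arc-PMX. Its vehicle groups did not overlap, and 5 of 6 Arc-PMX wells lay below all WT-PMX wells. It differed by -0.76 ± 0.17 (adjusted p = 0.00152) and -0.87 ± 0.16 (adjusted p = 0.000142).

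Cspg5 (chr9:110243783-110262576, plus strand), a membrane proteoglycan of glia and neurons, had 467, 525 and 585 CPM in WT-veh, 404, 539 and 614 CPM in WT-PMX, 275, 359.8 and 464 CPM in Arc-veh and 336, 407 and 474 CPM in Arc-PMX. Every Arc-veh well lay below every WT-veh well, and in the PMX205 groups 3 of 6 did so. Its log2 fold changes were -0.56 ± 0.13 (SE, n = 6 and 6 wells, adjusted p = 0.00185) and -0.40 ± 0.13 (adjusted p = 0.0283), and the second was lost when any of 6 wells was left out, with doublets kept and without sublibrary 1 or 6. Sparcl1 had medians of 1341 CPM (1053 to 1589), 1561 CPM (1142 to 1785), 1230.1 CPM (1037 to 1439) and 1203 CPM (802 to 1315) in the 4 groups. The groups overlapped, and it was lower in Arc-PMX than in WT-PMX by -0.45 ± 0.12 (adjusted p = 0.00630) but not called in vehicle, at -0.18 ± 0.12 with an adjusted p of 0.382. With doublets kept, the Sparcl1 call was lost (-0.37, adjusted p = 0.0550).

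Col4a5 (chrX:141475385-141689234, plus strand) had 39.4, 84.3 and 96.4 CPM in WT-veh astrocytes, 63.1, 93.3 and 147 CPM in WT-PMX, 84.6, 133 and 205 CPM in Arc-veh and 97.6, 169 and 196 CPM in Arc-PMX. In vehicle 5 of 6 Arc wells lay above all WT wells, and 4 of 6 in the PMX205 groups. Its log2 fold changes were 0.77 ± 0.21 (SE, n = 6 and 6 wells, adjusted p = 0.0106) and 0.63 ± 0.20 (adjusted p = 0.0286). In vehicle the call was lost without the WT-veh wells F3 and M3 (0.62, adjusted p = 0.0702) or without Arc-veh M2 (adjusted p = 0.0694). In the PMX205 groups it was lost without any of the wells F3, M1 and M2 of WT-PMX and F1, M2 and M3 of Arc-PMX (adjusted p up to 0.141) and with only those groups in the fit (0.0546). Without sublibrary 3 both calls were lost (adjusted p = 0.0522 and 0.0647).

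Col11a1 (chr3:114030540-114220718, plus strand) rose from 3.58, 6.78 and 15.6 CPM in WT-veh astrocytes to 17.9, 23.4 and 32.6 CPM in Arc-veh, with no overlap, by 1.45 ± 0.36 (SE, n = 6 and 6 wells, adjusted p = 0.00461). The counts were 19 and 81 transcripts, and with doublets kept the call was lost (1.07, adjusted p = 0.0514). Col11a1 was near the filter on low counts, which it passed mainly through the higher Arc wells, and it was filtered out in some alternatives. Its entry into the test thus depended on the group where it was high. With no filter the call was kept. WT-PMX had 5.49, 14.1 and 21.0 CPM and Arc-PMX 16.4, 22.8 and 40.3 CPM, a difference of 0.83 ± 0.32 with an adjusted p of 0.0925. Adamts20, a protease of versican, had medians of 114 CPM (49.2 to 153), 126 CPM (42.1 to 207), 201 CPM (73.6 to 268) and 198 CPM (161 to 288) in the groups in the same order. Its groups overlapped. It was called higher in Arc-PMX than in WT-PMX (0.76 ± 0.22, adjusted p = 0.0170) and not called in vehicle (0.67 ± 0.23, adjusted p = 0.0510). The call was lost without WT-PMX F2, WT-PMX F3 or Arc-PMX F1 (adjusted p = 0.0548, 0.0597 and 0.0840) and when nuclei were named by their highest marker score (0.0663).

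The lecticans and the link protein of astrocytes did not pass. In vehicle Bcan had a log2 fold change of -0.58 ± 0.23 (adjusted p = 0.108), Ncan one of -0.47 ± 0.20 (adjusted p = 0.137) and Hapln1 one of -0.43 ± 0.20 (adjusted p = 0.173). Adamts9, so different in OPCs, had group medians of 326, 337, 310.2 and 333 CPM in astrocytes. Of the markers of other types, those of fibroblasts in astrocytes moved with genotype, with summed medians of 290.4, 252, 108 and 117 CPM, of which Ranbp3l alone made 255, 232, 82.0 and 89.2 CPM. 3 of the 10 fibroblast markers were at 0. The pericyte markers moved the other way, at 234, 306, 400.4 and 373 CPM, with Atp13a5 at 97.9, 118, 219 and 193 CPM and 1 of 7 markers at 0. Neuron markers summed to 656, 489, 359.9 and 420.2 CPM. Their part in the astrocyte results was not tested.

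Different clusters held most astrocytes of the genotypes. A cluster with Gfap among its leading genes (SN-9) held most astrocytes of both Arc groups, and the clusters SN-4 and SN-6 held most of both WT groups. The comparisons were therefore repeated, after this had been seen, within the Gfap-led cluster and within the other clusters. None of Cspg5, Lama2, Lama3, Col4a5 and Adamts20 was called within either, and Col11a1 had too few transcripts there to be tested. A missing call does not show equal levels, and only 4 WT-veh wells entered in the Gfap-led cluster. In vehicle Cspg5, Lama2 and Lama3 had log2 fold changes (± SE) of -0.22 ± 0.25, -0.21 ± 0.17 and 0.024 ± 0.45 in that cluster. In the other clusters these were -0.064 ± 0.13, -0.15 ± 0.11 and -0.13 ± 0.21. Within the other clusters, Cspg5 had medians of 546 CPM for WT-veh wells and 503 CPM for Arc-veh wells, Lama2 1259 and 1098 CPM, and Lama3 173 and 171 CPM. Within the Gfap-led cluster the same genes had 389 and 287 CPM, 938 and 739 CPM, and 83.2 and 75.6 CPM. Col4a5 had 75.5 and 93.0 CPM in the other clusters, and 199.8 and 165 CPM in the Gfap-led cluster. Adamts20 differed between the PMX205 groups by 0.21 ± 0.30 (adjusted p = 0.783) in the Gfap-led cluster and 0.057 ± 0.25 (0.996) in the other clusters. In vehicle Bcan, Ncan and Hapln1 stood at -0.11 ± 0.23, -0.17 ± 0.22 and 0.082 ± 0.23 in the other clusters. Bcan and Ncan stood at -0.56 ± 0.32 and -0.70 ± 0.34 in the Gfap-led cluster, and none of these was called. Cspg5, Lama2, Lama3 and Col4a5 differed more in vehicle between cluster sets within a group than between genotypes within a set, by their medians and with no test of that contrast. In the PMX205 groups this order did not hold throughout for Col4a5. Its medians in WT-PMX and Arc-PMX were 87.7 and 74.6 CPM in the other clusters and 156 and 225 CPM in the Gfap-led cluster. The part of the clusters in the calls over all astrocytes was not tested.

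**Figure D4:**
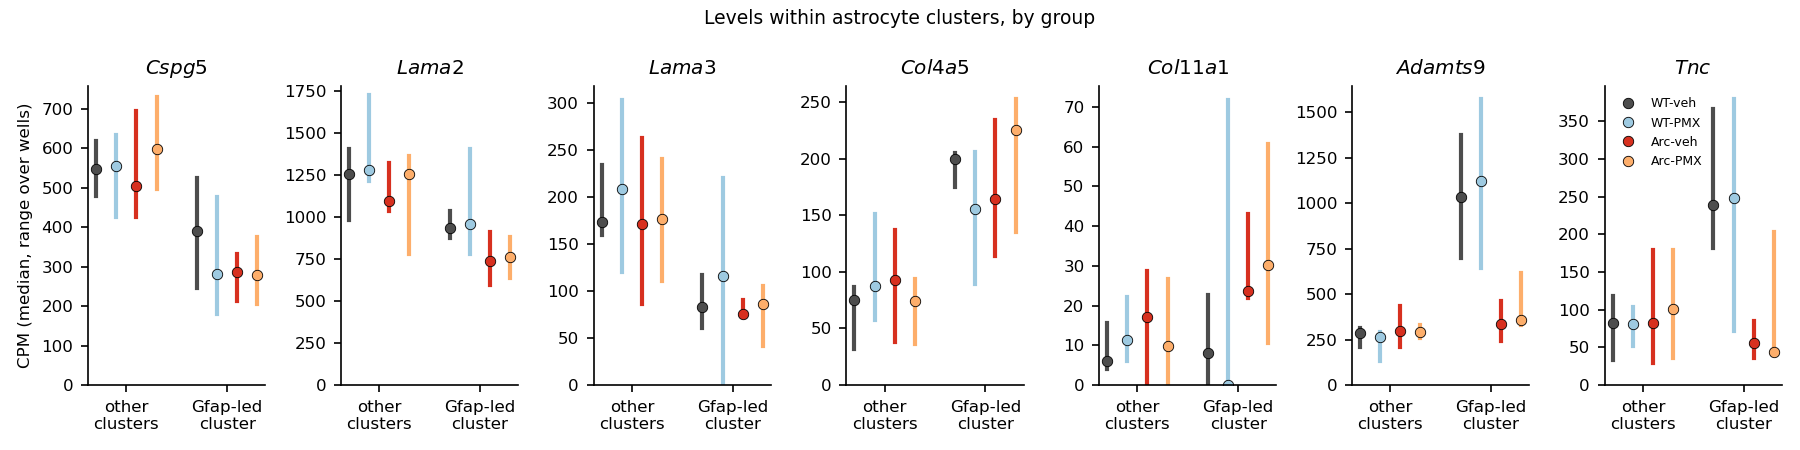
Levels of 7 matrix genes within the astrocyte clusters, in CPM, with the median (point) and range over wells (line) of each group, for the clusters not led by Gfap (left of each panel) and for the Gfap-led cluster (right). Cspg5, Lama2 and Lama3 are lower on the right in every group, whereas Adamts9 and Tnc are far higher in the WT groups than in the Arc groups on the right alone.

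Within the Gfap-led cluster 3 of 20 matrix genes were called in vehicle, beside 7.04% of all genes, and all 3 were lower in Arc-veh. Adamts9 had 699.7, 1373, 1343 and 729 CPM in the 4 WT-veh wells with at least 10 such nuclei. It had 645, 1123 and 1572 CPM in WT-PMX, 241, 334 and 460.5 CPM in Arc-veh and 328, 355 and 613 CPM in Arc-PMX. No Arc well reached a WT well. The log2 fold change was -1.55 ± 0.22 (SE, n = 4 and 6 wells, adjusted p = 4.28e-06) in vehicle and -1.34 ± 0.20 (adjusted p = 4.84e-06) in the PMX205 groups. Tnc had 233, 245, 366 and 182 CPM in the 4 WT-veh wells, 71.7, 248 and 379 CPM in WT-PMX, 35.2, 55.6 and 85.5 CPM in Arc-veh and 41.0, 44.3 and 203 CPM in Arc-PMX. It differed by -2.10 ± 0.41 (adjusted p = 0.000508) in vehicle, without overlap, and by -1.62 ± 0.36 (adjusted p = 0.00178) in the PMX205 groups, with overlap. Only 45 and 60 Tnc transcripts lay behind the WT groups. Tnr had 117, 327, 529 and 911 CPM in the 4 WT-veh wells and 70.5, 168 and 223 CPM in Arc-veh, a difference of -1.55 ± 0.33 (adjusted p = 0.00146). In the PMX205 groups 7 of 20 genes were called, beside 9.47% of all genes. Beside Adamts9 and Tnc, lower levels in Arc-PMX were called for Ncan (-0.96 ± 0.28, adjusted p = 0.0186), Sparcl1 (-0.65 ± 0.17, adjusted p = 0.00971), Reln (-1.70 ± 0.55, adjusted p = 0.0419) and Col23a1 (-2.13 ± 0.46, adjusted p = 0.000970). Sparc was higher (1.30 ± 0.42, adjusted p = 0.0430), and Tnr was not called there (-0.85 ± 0.31, adjusted p = 0.0810). The cluster held 127 and 144 nuclei of the WT groups and 674 and 678 of the Arc groups. Behind the WT groups lay 7 and 12 Sparc, 9 and 24 Reln and 22 and 62 Col23a1 transcripts. Sparc had wells at 0 CPM in both WT groups and at least 52.46 CPM in every Arc well. Reln had at most 48.6 CPM in an Arc well, against a WT-PMX median of 82.6 CPM. Col23a1 had medians of 129 and 58.1 CPM in the WT groups and 31.7 and 25.6 CPM in the Arc groups. Entry of these genes past the filter on low counts may thus have rested on the groups where they were high. Over all nuclei, neurons held 85.1% of Tnr, 95.7% of Reln and 90.6% of Col23a1 transcripts. The part of other types' RNA in this cluster was not tested. Within the other clusters 1 of 18 was called in vehicle, beside 0.98% of all genes, namely Sparc at -0.96 ± 0.25 (adjusted p = 0.0430). In the PMX205 groups 0 of 18 were called by edgeR's quasi-likelihood test, beside 0.73%, and 1, Lama2, had an unadjusted p under 0.05, beside 387 of all 4797 genes. DESeq2 was not run within the clusters. With each of 24 wells left out, the calls of Adamts9 and Tnc in the Gfap-led cluster were kept in both comparisons. That of Tnr was lost without WT-veh M2, that of Col23a1 without WT-PMX M2, that of Sparcl1 without WT-PMX F1 and that of Ncan without WT-PMX F1 or M1. That of Reln was lost in 9 of the 24 fits and that of Sparc in 7, with adjusted p up to 0.113 and 0.104. The Sparc call of the other clusters was lost in 12 of the 24 (adjusted p up to 0.157). With a well left out, the log2 fold change of Col23a1 in the Gfap-led cluster ranged from -2.80 to -1.50.

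Sparc was the 1 matrix gene with counts enough for a test in microglia, and it fell. Sparc (chr11:55394500-55423183, minus strand) codes for a collagen-binding protein, and in the brain microglia are one of its sources. It had 638, 687, 608 and 568 CPM in the 4 WT-veh wells F1, F2, M1 and M2. It had 381, 1124, 603, 609 and 948 CPM in the 5 WT-PMX wells F1, F2, M1, M2 and M3. The Arc-veh wells had 258, 282 and 340.4 CPM as lowest, median and highest, and the Arc-PMX wells 164, 313 and 484 CPM. Every Arc-veh well lay below every WT-veh well, and 5 of 6 Arc-PMX wells lay below all WT-PMX wells. The log2 fold change was -1.04 ± 0.27 (SE, n = 4 and 6 wells, adjusted p = 0.00849) in vehicle, beside 4.51% of microglial genes called lower, and -1.19 ± 0.26 (n = 5 and 6 wells, adjusted p = 0.00164) in the PMX205 groups, beside 4.11%.

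Microglial markers were also lower in Arc, with summed medians of 12584 and 12113 CPM in the WT groups and of 8687 and 8483 CPM in the Arc groups, and none of the 9 was at 0. Endothelial markers, 1 of 9 at 0, summed to medians of 233, 59.3, 352 and 478 CPM in the 4 groups. The part of either in the Sparc result was not tested. The wells F3 and M3 of WT-veh had too few microglia to enter, so that the result is the same without them. Without WT-veh F2, which held 29 of the 69 WT-veh transcripts, the vehicle call was lost (adjusted p = 0.0747). Both calls were lost when nuclei were named by their highest marker score in place of their cluster, with log2 fold changes of 0.024 (adjusted p = 0.976) in vehicle and -0.47 (0.363) in the PMX205 groups. Both were also lost with no filter on low counts, at -0.73 (adjusted p = 0.266) and -0.83 (0.0883). An unnamed cluster of 690 nuclei (SN-22), which scored highest for microglia, did not enter the microglial sums by cluster. Its part was not tested.

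Oligodendrocytes had 7 matrix genes tested and none called in vehicle, beside 2.85% of all genes. Their 2 largest vehicle differences were Col23a1, at 1.47 ± 0.48 with an adjusted p of 0.102, and Tnr, at -1.03 ± 0.39 with an adjusted p of 0.197. Col23a1 had medians of 5.18 and 11.7 CPM in the WT groups and of 44.9 and 47.8 CPM in the Arc groups, on 16, 22, 70 and 78 transcripts. The PMX205 groups had it at 1.51 ± 0.44 with an adjusted p of 0.0696. In endothelial nuclei Col4a1 had a log2 fold change of -0.80 ± 0.35 (adjusted p = 0.998) in vehicle.

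No matrix gene passed in the comparisons of PMX205 with water. Of 104 pairs in 8 types, 0 passed in Arc-PMX against Arc-veh by edgeR's quasi-likelihood test and 0 by DESeq2, 6 had an unadjusted p under 0.05, beside 2.23% of all pairs, and the smallest adjusted p was 0.996. Over all genes 3 pairs passed by edgeR, or 0.00828%, and 0% by DESeq2. In WT-PMX against WT-veh 0 of 104 pairs passed by edgeR or DESeq2, 4 had an unadjusted p under 0.05, beside 3.8% of all pairs, the smallest adjusted p was 0.931, and 0% of all genes passed by either tool. The test of whether PMX205 acted differently in the genotypes called 0 of 96 pairs by edgeR or DESeq2, with 3 at an unadjusted p under 0.05 (beside 3.17% of all pairs), a smallest adjusted p of 0.981, and 0% of all genes by either tool. That test is also the test of whether the genotype effect differed between water and PMX205. No gene was thus shown to differ between the genotype comparisons on water and on PMX205. The log2 fold changes ranged from -1.67 to 1.38 for PMX205 in Arc, and from -2.86 to 1.51 in WT.

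The 6 pairs called in both genotype comparisons had these PMX205 differences in Arc mice, none of them called. They were -0.19 ± 0.19 for Adamts9 in OPCs, 0.049 ± 0.099 for Lama2, 0.084 ± 0.17 for Lama3, 0.13 ± 0.13 for Cspg5 and 0.11 ± 0.18 for Col4a5 in astrocytes, and 0.0085 ± 0.21 for Sparc in microglia (log2 fold change ± SE, n = 6 and 6 wells). The other called pairs had -0.092 ± 0.12 for Sparcl1, 0.14 ± 0.21 for Adamts20 and -0.034 ± 0.27 for Col11a1 in astrocytes. The farthest from 0 was Col11a1 in OPCs, at 0.39 ± 0.20 (unadjusted p = 0.0612, adjusted p = 1).

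**Figure D5:**
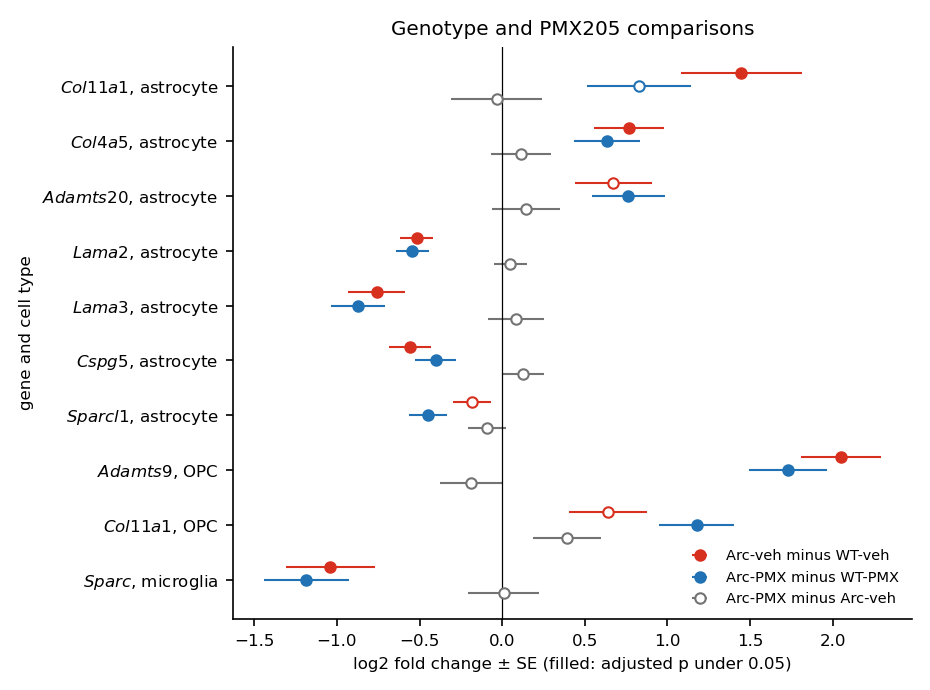
Log2 fold change with its SE for the 10 called pairs, for the genotypes on water (Arc-veh minus WT-veh), the genotypes on PMX205 (Arc-PMX minus WT-PMX) and PMX205 in Arc mice. Filled points have an adjusted p under 0.05. The genotype points lie on the same side of 0 for every pair, and the PMX205 points lie between -0.19 and 0.39.

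Col4a5 is read from a promoter that faces that of Col4a6, another type IV collagen chain, on the X chromosome, with gene starts 1309 bases apart and the genes running in opposite directions. Col4a6, which is not among the 36 genes and was chosen after its values were seen, was also higher in Arc astrocytes, by 2.21 ± 0.35 (SE, n = 6 and 6 wells, adjusted p = 8.51e-06) in vehicle and 2.32 ± 0.32 (adjusted p = 7.26e-07) in the PMX205 groups. Both calls are over all astrocytes, and Col4a5 was called within neither cluster set. Its log2 fold changes were -0.093 ± 0.30 in vehicle and 0.60 ± 0.26 in the PMX205 groups (adjusted p = 0.989 and 0.172) in the Gfap-led cluster, and 0.43 ± 0.26 and -0.31 ± 0.25 (0.622 and 0.843) in the other clusters, so that the sign differed between the sets in each comparison. Col4a6 was not called in the Gfap-led cluster either, at -0.060 ± 0.46 in vehicle and 0.96 ± 0.44 in the PMX205 groups (adjusted p = 0.975 and 0.208). The upstream sequences of the pair are shown because both were called higher over all astrocytes. That of Adamts9 is shown because its fold change was the largest among the called pairs of the 36 genes and whole cell types. They are from RefSeq on GRCm38.p6, 5′ to 3′ on the strand of the gene, from 250 bases before to 50 bases after a start. Capitals mark the GC box GGGCGG and the CCAAT box CCAAT, on either strand, and the marked boxes do not overlap.
Col4a5 (chrX:141475169-141475468, plus strand): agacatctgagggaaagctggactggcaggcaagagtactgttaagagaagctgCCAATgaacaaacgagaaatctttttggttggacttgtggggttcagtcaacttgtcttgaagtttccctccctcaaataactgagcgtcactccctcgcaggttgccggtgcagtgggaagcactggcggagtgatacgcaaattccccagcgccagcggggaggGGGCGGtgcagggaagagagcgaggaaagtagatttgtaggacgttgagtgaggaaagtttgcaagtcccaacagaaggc
Col4a6 (chrX:141474027-141474326, minus strand): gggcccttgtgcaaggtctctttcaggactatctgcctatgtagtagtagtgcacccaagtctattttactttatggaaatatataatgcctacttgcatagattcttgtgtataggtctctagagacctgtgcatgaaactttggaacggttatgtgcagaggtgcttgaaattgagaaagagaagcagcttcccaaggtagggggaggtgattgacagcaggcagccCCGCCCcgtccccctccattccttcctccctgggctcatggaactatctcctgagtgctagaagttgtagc
Adamts9 (chr6:92943485-92943784, minus strand): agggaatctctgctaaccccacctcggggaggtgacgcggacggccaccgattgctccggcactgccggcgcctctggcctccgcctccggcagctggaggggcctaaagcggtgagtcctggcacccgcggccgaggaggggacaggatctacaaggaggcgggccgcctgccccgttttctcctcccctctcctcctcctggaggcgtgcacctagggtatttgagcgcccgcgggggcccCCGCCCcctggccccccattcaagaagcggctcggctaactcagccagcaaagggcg
Each window held 1 GC box, and that of Col4a5 also 1 CCAAT box. Of 32851 promoters of the same length in the table, 11714 (35.7%) held a GC box and 37.4% a CCAAT box. The table held promoters for 27 of the 36 genes, and 24 of their 29 promoters had a GC box and 13 a CCAAT box. A match is a description of the letters and not of a bound site. Col4a1 and Col4a2, on chromosome 8, also face each other, with starts 21 bases apart and their annotated 5′ ends overlapping.

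Beyond the 36 genes, a list of 110 further matrix genes was read from the same fits. Of 274 pairs of gene and type, 19 rose and 6 fell in Arc-veh, where all genes gave the 1.96% and 1.13% above. Of 215 pairs 15 were higher and 5 lower in Arc-PMX than in WT-PMX, beside 2.25% and 1.09%. Astrocytes held 17 of the 25 vehicle calls, 13 higher and 4 lower of 43 tested, beside 7.6% and 4.9% of all astrocyte genes. PMX205 gave 0 calls in either genotype and for the difference of its effects. In astrocytes all 5 tested collagens of this list were called higher in both genotype comparisons. Col27a1, a fibrillar collagen, was higher by 2.26 ± 0.21 (SE, adjusted p = 1.19e-10) in vehicle, Col5a3 by 2.72 ± 0.33 (adjusted p = 5.67e-08) and Col16a1 by 1.70 ± 0.23 (adjusted p = 7.57e-07). Cd44, the hyaluronan receptor, was higher by 2.70 ± 0.25 (adjusted p = 1.67e-10). The glypican Gpc5, a heparan sulfate proteoglycan, was lower by -0.75 ± 0.094 (adjusted p = 1.36e-07). Gpc5 was also a leading gene of the clusters SN-4 and SN-6, in which most WT astrocytes lay. Within the Gfap-led cluster 6 of 29 tested genes of the list were higher and 0 lower in Arc-veh, beside the 7.04% of all genes called there in either direction. Col5a3 (3.60 ± 0.87, adjusted p = 0.00496), Col27a1 (1.56 ± 0.38, 0.00514) and Col16a1 (1.83 ± 0.53, 0.0245) were among the 6. Gpc5 was too, at 0.84 ± 0.21 (adjusted p = 0.00724), the opposite sign to that over all astrocytes, and Cd44 was not called (0.78 ± 0.33, adjusted p = 0.182). Within the other clusters 1 of 24 was called, beside 0.98% of all genes, namely Col16a1 (1.14 ± 0.29, adjusted p = 0.0377), and Gpc5 stood at -0.13 ± 0.088 (adjusted p = 0.674). Between the PMX205 groups 6 of 29 were higher and 1 lower in the Gfap-led cluster, beside 9.47% of all genes, and 0 of 24 were called in the other clusters by edgeR, beside 0.73%, with 6 at an unadjusted p under 0.05, beside 387 of 4797 genes. Col5a3, Col27a1 and Gpc5 were higher again in the Gfap-led cluster, whereas Col16a1 was called in neither set (0.66 ± 0.36, adjusted p = 0.315, and 0.57 ± 0.25, 0.490). These fits were also added after the data had been examined. Unlike the 36 genes, the genes of this list were not kept out of the variable genes used for clustering. A gene that helped to draw the clusters, as Gpc5 may have done, is not freely tested within them. Genes that vary with the 36 were not kept out either, so the tests of the 36 within the clusters were not wholly free of this. How far that shaped these values was not tested.

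Among other types in vehicle, 4 of 7 tested genes of the list were called in microglia (156 higher and 101 lower of all 2240 genes), 2 of 18 in oligodendrocytes (2.85% of all genes) and 2 of 26 in OPCs (36 higher and 6 lower of 2988). In microglia Xylt1, which starts chondroitin and heparan sulfate chains, was higher by 2.52 ± 0.42 (adjusted p = 0.000104) and Chst11, a chondroitin sulfotransferase, by 1.62 ± 0.29 (adjusted p = 0.000236). Timp2, a protease inhibitor, was higher by 1.31 ± 0.43 (adjusted p = 0.0427), and Col27a1 was lower there by -1.13 ± 0.25 (adjusted p = 0.00253). In the genotype comparison on PMX205 Xylt1 and Chst11 were called again, but Timp2 (0.87 ± 0.38, adjusted p = 0.155) and Col27a1 (-0.57 ± 0.26, 0.189) were not. In oligodendrocytes Col16a1 was higher by 1.66 ± 0.29 (adjusted p = 0.000206) and Col27a1 by 1.33 ± 0.31 (adjusted p = 0.00785). In OPCs Col16a1 was higher by 1.28 ± 0.30 (adjusted p = 0.0111), and Csgalnact1, which lengthens chondroitin sulfate chains, was lower by -0.61 ± 0.16 (adjusted p = 0.0412). Col16a1 was called again in both types between the PMX205 groups, as was Col27a1 in oligodendrocytes, whereas Csgalnact1 was not (-0.40 ± 0.16, adjusted p = 0.372). Between those groups 2 of the 18 genes in oligodendrocytes were called lower, 1 heparan sulfate proteoglycan and 1 matricellular gene. All 4665 genes tested there gave 65 higher and 12 lower. Among neuron classes, the glypican Gpc6 was higher in CA1 pyramidal cells by 1.16 ± 0.22 (adjusted p = 0.0234) and Fbln2 (fibulin-2) lower in dentate granule cells by -1.49 ± 0.30 (adjusted p = 0.0223) in vehicle. Neither was called between the PMX205 groups (adjusted p = 1 and 0.0694).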

How the data were processed

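Nuclei of frozen hippocampi were barcoded over 24 first-round wells, 1 mouse each, and read in 7 sublibraries. The authors deposited unnormalized transcript counts per gene and barcode from the Parse pipeline, with all barcodes kept, and a sheet that gives each well's group. Wells, not sublibraries, were the replicates. Wells of CD11b-selected cells were not used here.

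Nuclei with over 300 and under 50000 transcripts, over 400 genes and under 1% mitochondrial transcripts were kept, and 1253 of 45138 (2.78%) were removed as doublets (Scrublet score over 0.25). The rest were clustered with scanpy 1.11.5 (2000 variable genes without the 36, 30 components, 15 neighbours, Leiden resolution 1.5). A cluster took the name of a type with 3 or more of its markers found in at least 10% of the nuclei, where no second type reached 0.5 of its score. Sums of counts over the nuclei of a type in a well, where 10 or more were held, were formed and tested with edgeR 4.0.16 (quasi-likelihood, TMM, filterByExpr, all groups in 1 fit, sex as a covariate, Benjamini-Hochberg adjustment over the genes of a type, threshold 0.05) where both groups had at least 3 wells. DESeq2 1.42.0 was an alternative. The scripts were tested on simulated data. The 36 genes and the lists were chosen with earlier results of these data known, and naming rules were set after clusters had been seen. All 36 genes are described by level, and those called are given in every group. At most 5 further matrix genes per whole type and comparison are named by adjusted p, and Col4a6 beside them as the partner of Col4a5. Within astrocyte clusters the 5 genes named over all astrocytes were followed, so other genes called there are not named. Depth is given with the results. Correlations of same-numbered wells had medians of 0.045 to 0.065, so numbers were not taken as pairs.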

Additional observations from a re-analysis of the deposited data

Results flagged for a closer look

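Of 44 groups of 4 to 6 wells tested for a well far from the rest, 1 stood out, and chance gives about 1 in 20. The WT-PMX well M3 had 1668 CPM of Lama2 in astrocytes, while the other 5 wells of that group lay between 1173 and 1271 CPM. The gap was 0.801 of the group's range. The genotype call of Lama2 held in all 24 fits that left out a well.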

How the results depend on the processing

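The calls of the 36 genes in whole cell types were recomputed under 18 alternatives (15 for Col11a1 in astrocytes, which was filtered out in the rest) and with each of 24 wells left out. Lama2, Lama3 and Adamts9 in OPCs in both genotype comparisons, Cspg5 in vehicle and Col11a1 in OPCs in the PMX205 groups kept their calls in all of them, apart from the fits within astrocyte clusters. In vehicle the count of genes higher in Arc-veh, 3, was 6 with no filter on low counts and 3 to 5 with a well left out (5 without WT-veh F2). The count lower, 4, was 7 when nuclei were named by their highest marker score and 3 to 5 with a well left out. In the PMX205 groups the count higher, 4, was 7 with no filter and 2 to 6 with a well left out (2 without WT-PMX F3 and 2 without Arc-PMX F1). The count lower, 5, was 3 with doublets kept and 4 to 6 with a well left out. PMX205 in WT mice gave 1 call with no filter, and 0 otherwise, and PMX205 in Arc mice and the difference of effects gave 0 in every alternative run. Neurons led for 25 genes by share and for 4 by CPM.

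Signs turned in 6 cases, and the cause was not tested. Cspg5 in Arc-PMX against WT-PMX was 0.048 in the Gfap-led cluster and 0.11 in the other astrocyte clusters. Col4a5 was -0.31 in the other clusters in Arc-PMX against WT-PMX and -0.093 in the Gfap-led cluster in vehicle. Lama3 in vehicle was 0.024 in the Gfap-led cluster. Sparc in microglia in vehicle was 0.024 with names by highest score. With the replicate block the counts were 3 higher and 4 lower in vehicle, 4 and 5 in the PMX205 groups and 0 for PMX205, so that it changed no count, and same-numbered wells were not pairs. The test of the difference of effects was not run with only the groups compared. Calls within astrocyte clusters and in dentate granule cells were recomputed with each well left out and under 5 other settings, chosen after seeing the data. No filter on low counts ended those of Ncan, Sparcl1 and Reln, no sex covariate those of Ncan and, in the other clusters, Sparc, and RLE size factors or 20 nuclei per well that of Sparc in the Gfap-led cluster. The further matrix genes were not recomputed. Low numbers of nuclei limited vascular types and microglia, and Has2 was too sparse to test.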
